A study of Mus musculus with 12 samples.

Results

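The NR4A orphan nuclear receptors *Nr4a1*, *Nr4a2* and *Nr4a3* were followed through all 12 RNA-sequencing libraries of follicular B cells. These 3 genes were taken by symbol from 13574 genes present in either of the deposited count tables, of which the 4 h table held all 3 and the 0 h table held 2. Follicular B cells, the recirculating mature B cells of the spleen, had been sorted as CD21/35- CD23+ from adult male mice that were Gpr174+/Y (WT) or Gpr174-/Y (KO). *Gpr174* is an X-linked gene for a G-protein-coupled receptor with its whole coding sequence in 1 exon. The KO mice carry tdTomato there instead, as a reporter, and since the allele is not limited to B cells their other cells lack the receptor too. RNA came from cells frozen right after the sort (0 h) or from cells kept for 4 h in complete RPMI with serum and no added stimulus, with 3 libraries in each of 4 groups, from 3 mice per genotype. Whether the 0 h and 4 h libraries of a number came from the same mouse was not given.

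NR4A proteins are transcription factors of the nuclear receptor family whose ligand pocket is filled by bulky side chains, so their activity is set mainly by how much of them the cell makes. *Nr4a1* encodes NUR77, *Nr4a2* encodes NURR1 and *Nr4a3* encodes NOR1, and all bind the NBRE element, an extended nuclear receptor site. They are early response genes, switched on by antigen receptor signals in lymphocytes and by cAMP, through CREB, in many other cells, and in B cells NUR77 is known for restraining responses to antigen that comes without costimulation.

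*Nr4a1* (ENSMUSG00000023034.7) lies on the plus strand at chr15:101254269-101274795 (mm10, GENCODE M21), *Nr4a2* (ENSMUSG00000026826.13) on the minus strand at chr2:57106830-57124003 and *Nr4a3* (ENSMUSG00000028341.9) on the plus strand at chr4:48045153-48086447. None of the 3 overlaps another annotated gene. The 250 bases before each RefSeq start site (GRCm38.p6) are shown because all 3 hold the core of the CRE, the element that CREB binds, more often than most promoters do. Capitals mark the core, TGACG or its reverse complement CGTCA, and each sequence runs 5′ to 3′ on the strand of its gene. The *Nr4a1* window, chr15:101266596-101266845 on the plus strand, falls within the annotated span of the gene but in no exon. The *Nr4a2* window is chr2:57124004-57124253 on the minus strand, and for *Nr4a3* only the first 98 bases, chr4:48045055-48045152 on the plus strand, are printed, since the other 152 lie in an annotated exon.
Nr4a1: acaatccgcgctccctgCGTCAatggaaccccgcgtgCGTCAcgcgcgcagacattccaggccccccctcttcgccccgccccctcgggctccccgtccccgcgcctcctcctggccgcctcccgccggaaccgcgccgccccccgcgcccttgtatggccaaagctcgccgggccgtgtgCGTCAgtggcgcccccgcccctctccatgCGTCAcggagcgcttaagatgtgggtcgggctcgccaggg
Nr4a2: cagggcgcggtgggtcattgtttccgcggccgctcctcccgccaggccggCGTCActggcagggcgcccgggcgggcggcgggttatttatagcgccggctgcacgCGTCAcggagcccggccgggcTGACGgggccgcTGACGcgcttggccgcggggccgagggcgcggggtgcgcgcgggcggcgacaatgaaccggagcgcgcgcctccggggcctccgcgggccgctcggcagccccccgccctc
Nr4a3: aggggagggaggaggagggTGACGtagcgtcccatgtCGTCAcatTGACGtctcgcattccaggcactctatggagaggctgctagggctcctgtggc

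Each of the 3 windows held 4 CRE cores, 1 of those of *Nr4a3* lying in the part not printed. They started 233, 213, 69 and 40 bases before the *Nr4a1* start site, 200, 144, 123 and 111 bases before that of *Nr4a2*, and 231, 213, 205 and 147 bases before that of *Nr4a3*. Of 32817 RefSeq windows of the same length, 17.7% held the core at all and 45 (0.137%) held 4 or more, counting both strands and counting a full CRE as 2 cores. The windows were rich in G and C, at 74.4%, 80.0% and 63.6% against a median of 52.4%, and among the 6578 windows with at least 63.6% the shares were 28.0% and 0.38%. No window of the 3 held a full CRE (TGACGTCA, in 1.55% of windows), an NBRE (AAAGGTCA, 1.34%), a MEF2 box (CTANNNNTAG, 3.2%) or a CArG box (1.47%), each searched on both strands. A letter match is no evidence of a bound site, and its absence covers these windows only.

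Library totals ran from 6098941 to 11618787 reads, and the *Rn45s* row took 6.65% to 11.3% of them. Levels are given in CPM, the reads of a gene scaled to a common total by TMM, as mean ± SD (n = 3). At 0 h *Gpr174* was read at 152 ± 4.26 CPM in WT libraries and at 74.7 ± 1.76 CPM in those of KO mice, and at 4 h at 162 ± 8.36 against 109.6 ± 7.52 CPM. The KO groups therefore kept reads at this locus, and more of them after culture, with every KO 4 h library above every KO 0 h library (log2 fold change 0.55 ± 0.07, edgeR adjusted p = 2.39e-06). Counts were per gene, so reads could not be placed by exon. Of 8 B cell markers, 6 were in both tables (*Ighm* and *Ighd* were not) and summed at 0 h to 6859 to 7223 CPM (WT) or 6788 to 6925 CPM (KO), and at 4 h to 5212 to 5500 CPM (WT) or 6128 to 6277 CPM (KO). *Fcer2a*, which encodes CD23, was at a mean of 1532, 1335, 528 and 984 CPM in the same order, and *Cr2*, which encodes the CD21/35 of the negative gate, was not absent at 1070, 961, 159 and 300 CPM.

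Freshly sorted WT and KO B cells held overlapping levels of *Nr4a1*. *Nr4a1* stood at 34.0, 26.7 and 32.4 CPM in WT 0 h replicates 1 to 3 and at 32.4, 26.2 and 34.1 CPM in KO 0 h. The groups overlapped throughout, with means of 31.0 ± 3.86 and 30.9 ± 4.15 CPM. The log2 fold change, WT over KO, was -0.0025 ± 0.12 (SE; interval of 2 SE either side -0.25 to 0.25; edgeR adjusted p = 0.996), so a genotype difference above about 1.19-fold lay outside that interval. Across all genes 0.987% were called at 0 h in either direction, a call being an adjusted p under 0.05.

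*Nr4a3* was close to the limit of detection before culture. Its counts were 11, 7 and 13 reads in WT 0 h and 9, 1 and 11 reads in KO 0 h, or 1.24, 0.785 and 1.16 CPM against 1.14, 0.148 and 1.51 CPM. The KO libraries spanned the WT values, and the gene did not pass the filter on low counts in the 0 h fit. In a fit without the filter its WT over KO log2 fold change was 0.17 ± 0.63 (edgeR adjusted p = 0.947), with an interval of 2 SE either side from -1.09 to 1.42, far wider than that of *Nr4a1*. *Nr4a2* had no row at 0 h. No row of the deposited tables summed to fewer than 10 reads across its 6 libraries, so *Nr4a2* is reported as below that cutoff, which is no more than 9 reads in all.

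After 4 h all 3 genes were higher in WT than in KO B cells, and for none of them did the WT and KO libraries overlap. *Nr4a1* reached 93.1, 66.3 and 83.5 CPM in WT 4 h and 39.5, 46.0 and 46.2 CPM in KO 4 h. The lowest WT library was thus above the highest KO library, at means of 81.0 ± 13.6 and 43.9 ± 3.81 CPM. The log2 fold change was 0.88 ± 0.11 (edgeR adjusted p = 5.2e-05), a 1.84-fold difference with bounds of 1.58 and 2.15 at 2 SE.

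*Nr4a2* was read 47, 45 and 67 times in WT 4 h and 17, 13 and 18 times in KO 4 h, which came to 7.58, 7.04 and 7.07 CPM against 2.24, 1.55 and 2.45 CPM. The 3 WT libraries lay close together at 7.23 ± 0.307 CPM, and every KO library was below them, at 2.08 ± 0.467 CPM. The WT over KO log2 fold change of 1.80 ± 0.26 was the largest of the family (3.48-fold, 2.41 to 5.02; edgeR adjusted p = 0.000263), although its interval overlapped that of *Nr4a3*.

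*Nr4a3* was read 70, 60 and 146 times in WT 4 h and 38, 24 and 36 times in KO 4 h. In CPM the WT libraries were at 11.3, 9.38 and 15.4 and the KO libraries at 5.01, 2.87 and 4.89. WT replicate 3 was the highest and KO replicate 2 the lowest, and the remaining libraries still left a gap between genotypes. The log2 fold change was 1.53 ± 0.25 (2.88-fold, 2.05 to 4.06; edgeR adjusted p = 0.000624).

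All 3 genes were thus called higher in WT at 4 h, where 5.22% of 11123 genes tested were called higher and 5.67% lower, and where 14.4% had all WT libraries above all KO libraries. Among those genes *Nr4a2* ranked 33, *Nr4a3* 50 and *Nr4a1* 174 by fold higher in WT. Summed marker levels also differed between genotypes at 4 h without overlap. The 6 B cell markers summed lower in WT, by the ranges above. The 5 marginal zone markers, *Cr2* among them, also summed lower in WT, at 233 to 277 CPM against 368 to 417 CPM in KO. Within them *Dtx1* and *S1pr3* had higher means in WT. The 3 dendritic cell markers (*Flt3*, *Zbtb46* and *Itgax*) summed to 8.71 to 12.9 CPM (WT) against 3.29 to 7.88 CPM (KO). Of these, *Flt3* was called higher in WT (edgeR adjusted p = 0.00344). *Zbtb46* was not called (adjusted p = 0.229), and *Itgax* had a lower mean in WT, at 1.14 against 1.44 CPM. The 3 plasma cell markers in both tables, of 4, summed to 79.7 to 87.5 CPM (WT) and 66.3 to 75.2 CPM (KO). The 9 genes of tissue dissociation and stress summed to 338 to 420 CPM (WT) against 322 to 337 CPM (KO), the same direction as the NR4A genes. Of these 9, *Egr1* was called the other way, at means of 52.2 CPM in WT and 68.9 CPM in KO (edgeR adjusted p = 0.0292). The part of all these markers in the NR4A differences was not tested. In these bulk libraries fewer cells of a type and less RNA per cell cannot be told apart.

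**Figure D1:**
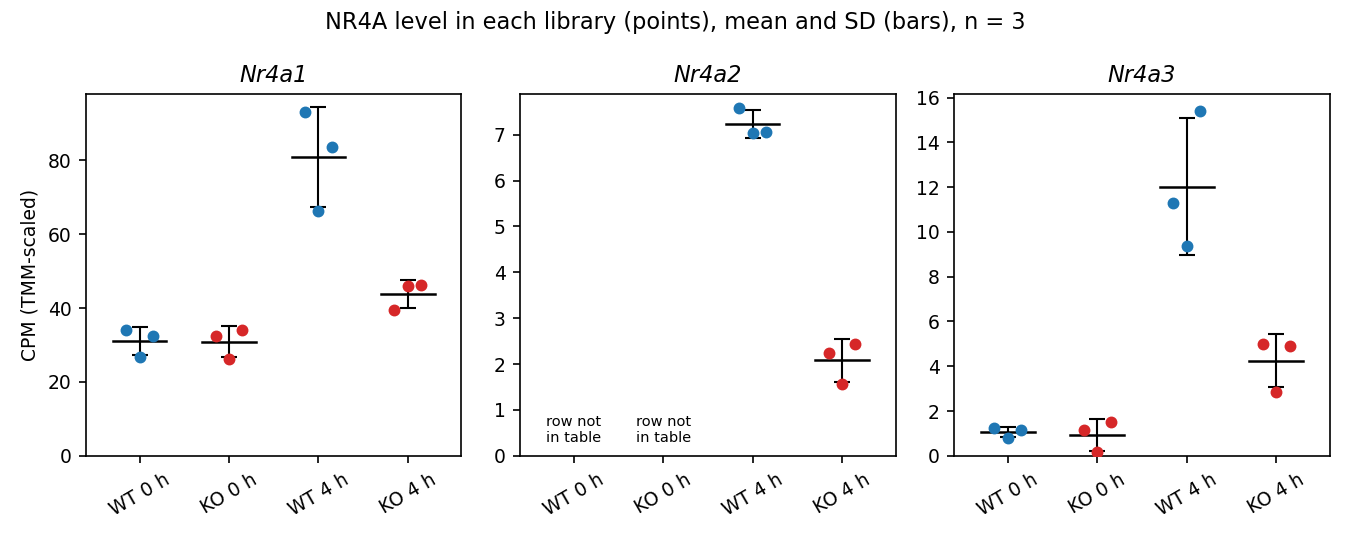
Level of each NR4A gene in CPM on TMM-scaled totals (vertical axes, a separate linear scale from 0 for each gene) in the 4 groups, with points for the 3 libraries of a group, a line for the mean and bars for 1 SD. WT and KO overlap at 0 h for *Nr4a1* and *Nr4a3* and separate at 4 h for all 3 genes, and *Nr4a2* is marked where the 0 h table has no row for it.

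Culture for 4 h raised *Nr4a1* and *Nr4a3* in both genotypes. In WT B cells *Nr4a1* rose by 1.38 ± 0.12 on the log2 scale (2.61-fold; edgeR adjusted p = 8.12e-09) and *Nr4a3* by 3.49 ± 0.36 (11.2-fold, 6.79 to 18.6; adjusted p = 1.33e-07). In KO B cells *Nr4a1* rose by 0.50 ± 0.13 (1.42-fold; adjusted p = 0.00618) and *Nr4a3* by 2.13 ± 0.43 (4.38-fold, 2.41 to 7.96; adjusted p = 0.000869). For both genes and in both genotypes every 4 h library was above every 0 h library. That was so for 20% of genes in WT and 20.6% in KO, while 15.1% of 11572 genes tested were called higher and 18% lower after culture in WT, against 10.3% and 13% in KO. By fold upward *Nr4a3* ranked 9 of those 11572 genes in WT and 17 in KO. It did not pass the filter in the 0 h fit and was kept here through its 4 h libraries, where it is high. Its rank is therefore a description and no separate support for the rise.

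*Nr4a2* could not be tested for culture, as it had no 0 h row. If its absence there means at most 9 reads in all, and all of these fell in one genotype, its pooled 0 h level was at most 0.31 CPM in WT or 0.41 CPM in KO. The 159 reads of WT 4 h then put it at least 23.2-fold higher than at 0 h, and the 48 reads of KO 4 h at least 5.02-fold higher. These bounds rest on the row cutoff and cover no counting error.

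The KO cells gained less *Nr4a1* than WT cells did. *Nr4a1* gained 49.9 ± 8.15 CPM (SE) in WT and 13.0 ± 3.25 CPM in KO, the KO gain being 26.1 ± 7.78% of that of WT. The test of the difference itself, the WT culture change minus that in KO, gave a log2 value of 0.88 ± 0.18 for *Nr4a1* (edgeR adjusted p = 0.00252), where 2.45% of genes were called upward and 3.94% downward. *Nr4a3* gained 11.0 ± 1.78 CPM in WT and 3.32 ± 0.805 CPM in KO, or 30.3 ± 8.84% of the WT gain. Its log2 difference in change was the larger at 1.36 ± 0.62 but was not called (edgeR adjusted p = 0.254), with 0 h counts of 1 to 13 reads behind it. These contrasts share libraries with the 4 h genotype contrast and are not separate evidence for it.

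The 0 h and 4 h libraries also differed in other markers. The macrophage and monocyte list had 3 of 7 genes in both tables, *Adgre1* in neither, and *Cd14*, *C1qa* and *C1qb* without a 4 h row. It summed at 0 h to 35.6 to 41.5 CPM (WT) or 43.6 to 46.4 CPM (KO), and at 4 h to 11.0 to 15.5 CPM (WT) or 6.32 to 26.3 CPM (KO). A missing row counted as 0, so *Cd14*, *C1qa* and *C1qb* enter the 0 h sums only, and the sums cover unlike sets. Of the 3 genes in both tables, *Lyz2* and *Csf1r* were called lower at 4 h in both genotypes and *Itgam* in neither. The stress list summed at 0 h to 423 to 712 CPM (WT) or 368 to 633 CPM (KO), above its 4 h sums in both genotypes. Within it *Dnajb1*, a heat shock cochaperone and the most abundant of the 9 at 0 h, fell from 283 to 118 CPM in WT and from 231 to 99.2 CPM in KO (edgeR adjusted p = 3.57e-05 and 0.000112). *Hspa1a*, an inducible HSP70 gene, rose with the NR4A genes, from 3.7 to 29.4 CPM in WT and from 4.5 to 22.7 CPM in KO (adjusted p = 1.25e-05 and 0.00042). The part of these markers in the culture change was not tested.

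**Figure D2:**
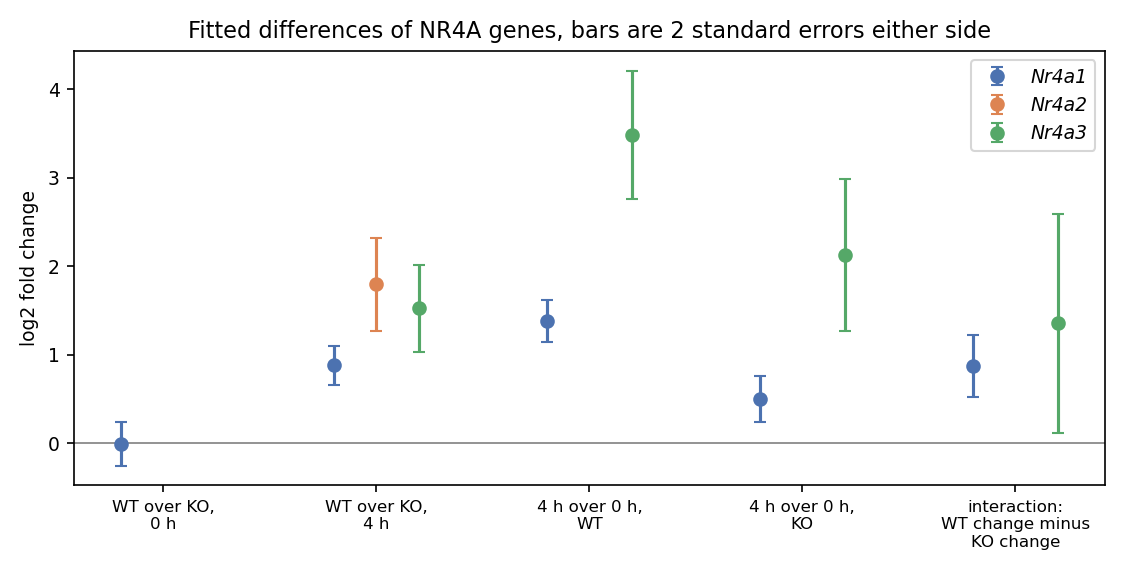
Fitted log2 fold changes of the NR4A genes (vertical axis) for 5 contrasts (horizontal axis), with bars of 2 standard errors either side. Each bar clears 0 except that of *Nr4a1* at 0 h, *Nr4a2* appears only at 4 h, and the wide bar of *Nr4a3* in the last contrast was not called after adjustment over all genes.

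Compared per length of exon, *Nr4a1* was by far the most abundant NR4A transcript in every group. On the scale of CPM per kilobase (RPKM), *Nr4a1* was at 8.85 ± 1.10 in WT 0 h and 8.81 ± 1.18 in KO 0 h, above 61.5% and 61.6% of genes. At 4 h it was at 23.1 ± 3.87 RPKM in WT and 12.5 ± 1.09 RPKM in KO, above 84.3% and 70.4% of genes. *Nr4a2* and *Nr4a3* stayed among the low transcripts. *Nr4a2* was at 1.78 ± 0.0757 RPKM in WT 4 h and 0.512 ± 0.115 RPKM in KO 4 h, and *Nr4a3* at 2.01 ± 0.513 and 0.711 ± 0.201 RPKM, after 0.177 ± 0.0406 and 0.156 ± 0.118 RPKM in WT and KO at 0 h. At 4 h the order was *Nr4a1*, *Nr4a3*, *Nr4a2* by mean in both genotypes, but the ranges of *Nr4a2* and *Nr4a3* overlapped in each.

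The summed NR4A level at 0 h was 9.02 ± 1.14 RPKM (WT) and 8.96 ± 1.30 RPKM (KO), and at 4 h it was 26.9 ± 4.19 RPKM (WT) and 13.7 ± 0.992 RPKM (KO). *Nr4a1* made up 98.1 ± 0.219% of the sum in WT 0 h and 98.4 ± 1.15% in KO 0 h, with *Nr4a2* absent from that table. In WT 4 h the shares were 85.8 ± 1.58% *Nr4a1*, 6.72 ± 0.941% *Nr4a2* and 7.48 ± 1.5% *Nr4a3*, and in KO 4 h 91.0 ± 2.49%, 3.74 ± 0.878% and 5.21 ± 1.63%. The minor members therefore took a larger part of the sum after culture, and more so by mean in WT. The log2 ratio of *Nr4a2* to *Nr4a1* per length was -3.68 in WT 4 h and -4.63 in KO 4 h, a difference of 0.95 ± 0.26 in which the groups did not overlap (exact permutation p = 0.1, two-sided, the smallest that 3 against 3 allows; adjusted over both ratios 0.2). For *Nr4a3* over *Nr4a1* the difference was 0.64 ± 0.35 and the groups overlapped (exact permutation p = 0.2). A ratio within a library does not depend on its scaling.

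**Figure D3:**
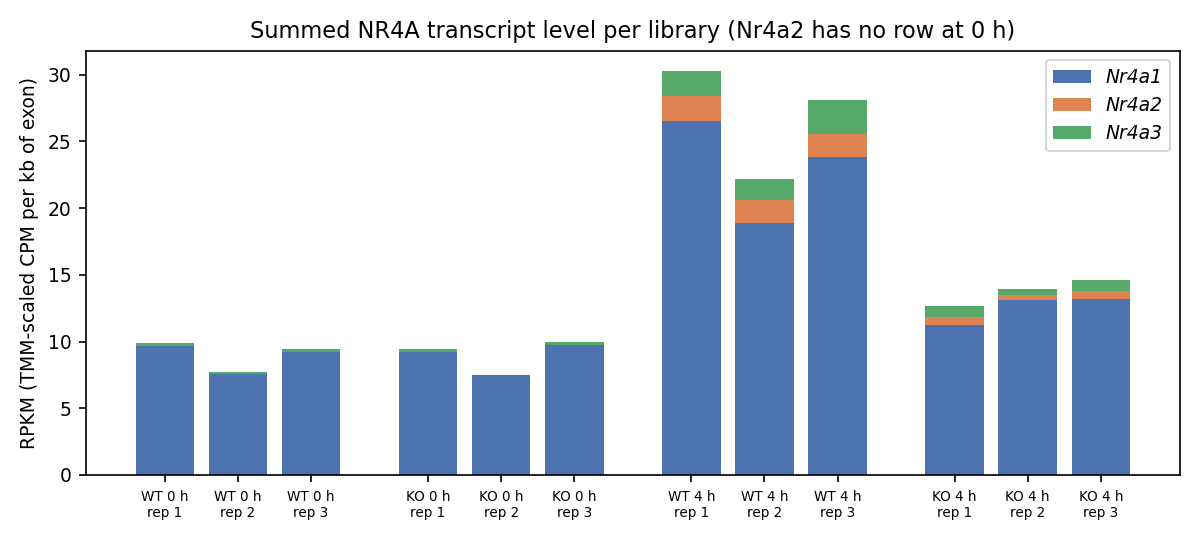
Stacked per-length level of the 3 NR4A genes in RPKM (vertical axis, linear from 0) in each of the 12 libraries (horizontal axis). *Nr4a1* fills most of every bar, and the bars of WT 4 h, at 22.2 to 30.3 RPKM, stand above those of KO 4 h, at 12.6 to 14.6 RPKM, and of 0 h.

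The spread between replicates is given beside that of counting alone, with no test. The coefficient of variation of *Nr4a1* was 16.8% in WT 4 h, where counting alone gives 4.17%, 12.4% against 5.8% in WT 0 h, 13.4% against 6.65% in KO 0 h and 8.68% against 5.42% in KO 4 h. For *Nr4a2* in WT 4 h it was 4.25%, under the 14.0% of counting, and for *Nr4a3* in KO 0 h it was 75.6% against 37.8%, resting on the single read of replicate 2. Replicate 2 was the lowest library of *Nr4a3* in all 4 groups, of *Nr4a1* in 3 of 4 groups and of *Nr4a2* in both of its groups.

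Among nuclear receptors, the NR4A genes took the first 3 places of 20 tested at 4 h by WT over KO log2 fold change. A list of 46 other nuclear receptors, ligand-activated and orphan, had 22 genes in both tables. At 0 h 0 of the 18 tested were called by edgeR or DESeq2, where edgeR called 0.987% of all genes. By edgeR 3 of the 18 had an unadjusted p under 0.05, against 1442 of all 11345 genes tested. At 4 h 1 of 17 was called, with a median log2 fold change of -0.03 (all genes 0.00). The called gene was *Nr3c1*, the glucocorticoid receptor, at 0.27 ± 0.06 (edgeR adjusted p = 0.00562). *Esrra*, an oestrogen-related receptor, stood next below the NR4A genes at 0.30 ± 0.17 (adjusted p = 0.318), and *Esr1*, the oestrogen receptor, was last at -1.04 ± 0.34 (adjusted p = 0.0659). The 1 of 17 called higher in WT at 4 h, 5.88%, is near the 5.22% of all genes. Of 19 tested for culture, 3 rose (15.8%) and 4 fell (21.1%) in WT, near the 15.1% and 18% of all genes, and 3 rose and 3 fell (15.8% each) in KO, against 10.3% and 13%. Of these *Nr6a1*, an orphan receptor of germ cells, rose by 1.72 ± 0.30 in WT and 1.60 ± 0.31 in KO, and *Rarg*, a retinoic acid receptor, fell by 1.68 and 1.84 on the log2 scale. The interaction was called for 1 of 19 (5.26%), *Rara*, downward, near the 3.94% of all genes called downward.

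**Figure D4:**
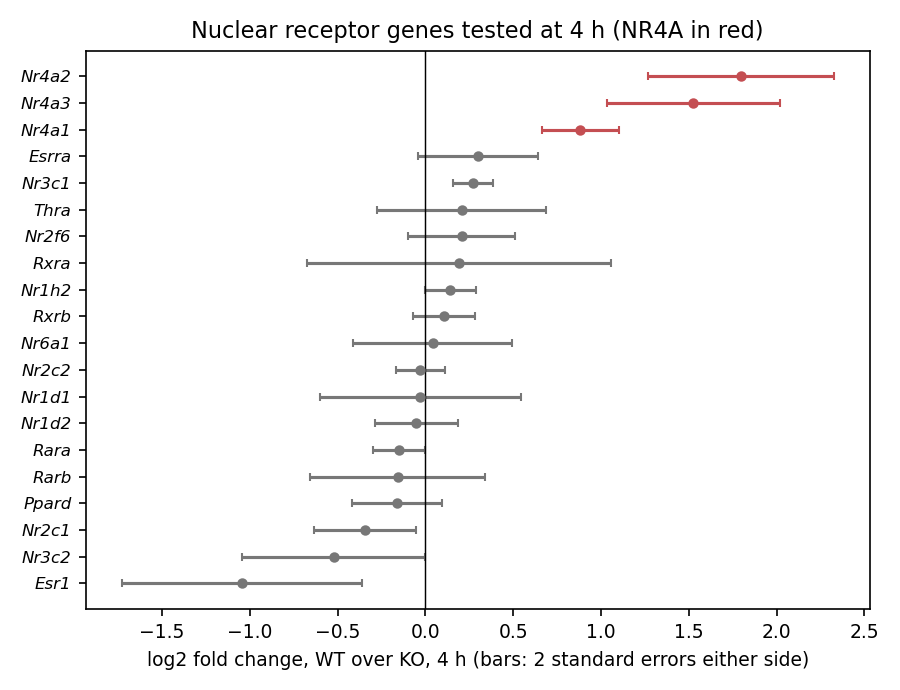
Log2 fold change of WT over KO at 4 h (horizontal axis) for the 20 nuclear receptor genes tested (vertical axis, ordered by value), with bars of 2 standard errors either side. The NR4A genes, in red, lie at 0.88 to 1.80, and the other 17, in grey, at -1.04 to 0.30.

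Known regulators of NR4A transcription were read beside them, in a list of 27. It held CREB factors and coactivators, MEF2 and NFAT factors, *Srf*, class IIa histone deacetylases, salt-inducible kinases and subunits of PKA, the cAMP-dependent kinase. At 0 h 1 of 27 (3.7%), *Atf1*, was called, higher in WT, against 0.502% of all genes, and DESeq2 called 0. At 4 h 9 (33.3%) were higher and 4 (14.8%) lower in WT, against 5.22% and 5.67% of all genes, with a median log2 fold change of 0.17 (all genes 0.00). *Crem*, a CRE-binding factor with inducible repressor isoforms, reached 137 ± 23.4 CPM in WT against 16.7 ± 1.54 CPM in KO (3.04 ± 0.12), and *Sik1*, a kinase that holds CREB coactivators out of the nucleus, at 94.0 ± 4.64 and 19.8 ± 1.36 CPM (2.25 ± 0.09). *Hdac9* and *Hdac7*, repressive partners of MEF2 factors, were lower in WT by -1.24 ± 0.09 and -0.79 ± 0.08, and each of these 4 had an edgeR adjusted p of at most 3.27e-06. Unlike *Nr4a1* and *Nr4a3*, *Crem* did not pass the test for culture in KO (-0.11 ± 0.15, adjusted p = 0.676) and *Sik1* fell there by 1.51, while in WT *Crem* rose by 3.05 ± 0.13 and *Hdac9* fell by 1.72. *Srf*, a CArG box factor, fell in both genotypes, by 0.60 in WT and by 0.82 in KO, with no call of a difference between them (interaction adjusted p = 0.382). Culture called 9 of 27 upward and 9 downward in WT (33.3% each, against 15.1% and 18% of all genes), and 6 (22.2%) and 8 (29.6%) in KO (10.3% and 13%). The interaction was called for 4 (14.8%) upward and 5 (18.5%) downward (2.45% and 3.94%).

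Genes that earlier work ties to NR4A function in lymphocytes formed a list of 20, of which 16 were tested in each contrast, though not the same 16 throughout. At 0 h *Klf2* was higher and *Tox* lower in WT, or 6.25% each way against 0.502% and 0.485% of all genes. *Tox* was low, at 1.12 ± 0.292 CPM in WT 0 h and 4.79 ± 2.57 CPM in KO 0 h. Its genotype difference was not tested at 4 h, where it was at 0.805 and 1.17 CPM in WT and KO. At 4 h 4 were higher in WT (*Cd86*, *Bcl2l11*, *Il2ra* and *Irf4*) and 2 lower (*Klf2* and *Bcl2*), or 25% and 12.5% against 5.22% and 5.67% of all genes, with a median of 0.15 (all genes 0.00). *Cd86*, a costimulatory ligand, differed by 2.15 ± 0.09, *Bcl2l11*, which encodes the death factor BIM, by 0.71 ± 0.06, *Klf2*, a quiescence factor, by -0.59 ± 0.08 and *Bcl2*, a survival gene, by -0.57 ± 0.07, all with an edgeR adjusted p of at most 6.54e-05. Some of these are reported to be restrained by NR4A proteins and some to be driven by them, so the list has no single direction. Culture called 5 upward and 5 downward in WT (31.2% each, against 15.1% and 18% of all genes) and 4 (25%) and 5 (31.2%) in KO (10.3% and 13%), the largest being *Il2ra* (3.21 ± 0.18 in WT, 2.57 ± 0.19 in KO), *Cd86* (2.33 ± 0.10 in WT) and *Tox* (-2.04 ± 0.50 in KO). The interaction was called for 3 (18.8%) upward and 2 (12.5%) downward (2.45% and 3.94%).

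Most other immediate early genes did not follow the NR4A pattern through culture. In a list of 30, 0 of 26 tested were called by edgeR between genotypes at 0 h, where 0.987% of all genes were, and DESeq2 called 1. By edgeR 7 of the 26 had an unadjusted p under 0.05, against 1442 of all 11345 genes tested. At 4 h 13 of 27 (48.1%) were higher in WT and 2 (7.41%) lower (*Egr1* and *Egr3*), against 5.22% and 5.67% of all genes, with a median log2 fold change of 0.31 (all genes 0.00). *Dusp5*, an ERK phosphatase, differed by 3.11 ± 0.38, *Plk2*, a kinase, by 2.90 ± 0.17, *Fosl2*, an AP-1 subunit, by 2.68 ± 0.25 and *Fos*, another, by 1.66 ± 0.37, each with an edgeR adjusted p of at most 0.00747. Levels of *Dusp5* and *Fos* at 4 h were low, at 5.35 and 3.66 CPM in WT and 0.599 and 1.16 CPM in KO. In culture 9 (33.3%) rose and 12 (44.4%) fell in WT (15.1% and 18% of all genes), with a median of -0.11, whereas 3 (11.1%) rose (*Egr2*, *Fosl2* and *Myc*) and 13 (48.1%) fell in KO (10.3% and 13%), with a median of -0.32. *Fosl2* had the largest rise in WT at 4.30 ± 0.33, above *Nr4a3*, and rose by 1.62 ± 0.43 in KO. Like *Nr4a3* it was not tested at 0 h, at 0.657 and 0.680 CPM in WT and KO, and was kept through its 4 h libraries. *Plk2* rose by 2.31 ± 0.27 in WT and was at -0.86 ± 0.33 in KO (adjusted p = 0.0638). *Fos* fell by 2.94 in KO and by 1.82 in WT, and *Dusp6*, an ERK phosphatase, by 2.05 and 1.69, with neither interaction called (adjusted p = 0.282 and 0.329). *Nr4a1* and *Nr4a3*, which rose in both genotypes and were higher in WT at 4 h, shared that combination with *Fosl2* alone among the 27. In the lists above *Il2ra*, *Bcl2l11*, *Prkar1a*, *Sik3* and *Nfatc3* had it too, so it is not particular to early genes. The share of all genes with this combination was not counted, so how rare it is among early genes cannot be judged here. The interaction was called for 7 (25.9%) upward and 2 (7.41%) downward (2.45% and 3.94%).

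**Figure D5:**
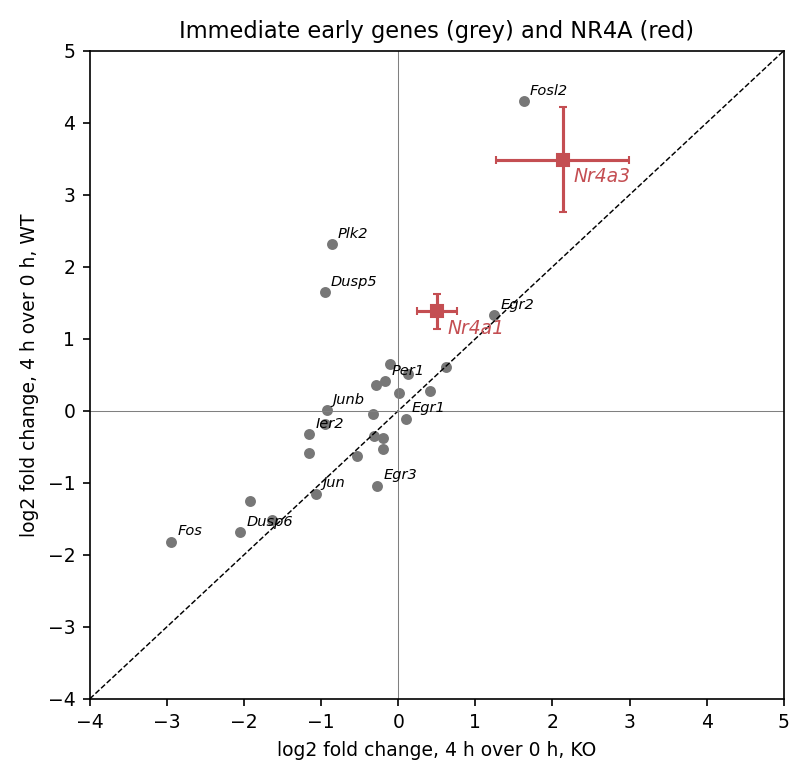
Log2 fold change of 4 h over 0 h in KO (horizontal axis) and in WT (vertical axis) for 27 immediate early genes in grey and for *Nr4a1* and *Nr4a3* in red with bars of 2 standard errors either side; the dashed line marks equal change in both genotypes. Both NR4A genes lie above the line and right of 0, as do *Fosl2*, *Egr2* (close to the line) and some unlabelled genes. *Plk2* and *Dusp5* are among several genes above the line and left of 0.

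The genes most like each NR4A member were taken by Pearson's r of log2 CPM, as a description over libraries that share depth and group. For *Nr4a1*, over 12 libraries, these were *Ubqln4* (r = 0.980), *Tgif1* (0.979), *Spata13* (0.978), *Ccr7* (0.974) and *Prkar1a* (0.974). *Tgif1* ran from 72.6 and 77.2 CPM in WT and KO at 0 h to 190 and 99.1 CPM at 4 h, and *Ccr7*, the chemokine receptor for the T zone, from 177 and 153 to 497 and 220.1 CPM. Both were highest in WT 4 h and next in KO 4 h, as *Nr4a1* was. *Nr4a3* itself came at r = 0.934, rank 86 of 11571. For *Nr4a3* the closest were *Atl3* (0.973), *Snrnp25* (0.970), *Thrap3* (0.969), *Tpr* (0.965) and *Pde4dip* (0.957), whose levels changed less than that of *Nr4a3*. *Snrnp25* ran from 32.8 and 27.1 CPM in WT and KO at 0 h to 55.9 and 42.5 CPM at 4 h, and *Tpr* from 993 and 978 CPM to 1134 and 1099 CPM.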

How the data were processed

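The authors sorted follicular B cells, made libraries with Ovation RNA-seq System V2, KAPA Hyper and NEXTflex kits, and used a HiSeq2500 for single-end sequencing; reads were aligned with STAR (mm10) and counted per gene with HTSeq. Versions, annotation and strand setting are not given in the sources used here. They deposited raw, unnormalized counts in a table for 0 h (13269 genes) and one for 4 h (13142), 12837 genes being in both and 0 columns unmapped. No molecular identifiers were used, so errors cover the reads as counted.

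Counts were scaled by TMM, filtered with filterByExpr and tested with edgeR 4.0.16 (glmQLFit, glmQLFTest; R 4.3.3), with Benjamini-Hochberg adjustment over all genes and calls at 0.05. Genotype (WT over KO) was fitted within each time; culture (4 h over 0 h) and the interaction in all 12 libraries over genes in both tables. SE is the log2 fold change over the root of F. CPM used TMM factors of all 12 libraries and RPKM the exonic length in GENCODE M21. DESeq2 1.42.0, other scalings, no filter, a replicate block and leaving out each library were alternatives. Replicates of a group differed by more than sampling noise (chi-square per degree of freedom 1.943 to 9.3), so each was kept. The fits were tested on simulated data.

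The members, lists and tests were chosen with earlier results of these data known. Beside the members, each list names up to 4 genes called by genotype at 4 h and up to 2 per culture contrast, by size of log2 fold change. Each member names the 5 most correlated genes. Other genes were named after their values were seen. They were *Esrra*, *Esr1*, *Rara*, *Egr1*, *Egr3*, *Egr2*, *Myc*, *Atf1*, *Sik3*, *Nfatc3*, *Il2ra* and *Irf4* at 4 h, and the 0 h calls. The marker genes *Dnajb1*, *Hspa1a*, *Dtx1*, *S1pr3*, *Lyz2*, *Csf1r* and *Itgam* were also named in this way. Promoters came from RefSeq tables (32817 windows, all 3 members matched by symbol).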

Additional observations from a re-analysis of the deposited data

Results flagged for a closer look

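The culture change of *Nr4a1* differed between genotypes by the test of the difference itself, at 0.88 ± 0.18 on the log2 scale (WT change minus KO change; edgeR adjusted p = 0.00252), where 2.45% of genes were called upward. All 3 WT 4 h libraries lay above all 3 KO 4 h libraries, as they did for 14.4% of genes tested at 4 h. That separation belongs to the 4 h genotype contrast and is no separate support for the difference in change. Groups of 3 are too small for the test of a single far library.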

How the results depend on the processing

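Under another scaling, DESeq2, no filter, all 12 libraries in the fit or only those compared, the *Rn45s* row left out (chosen after seeing the data) and each library left out in turn, each NR4A call of the report and the uncalled *Nr4a3* interaction stayed on its side of 0.05 wherever it could be fitted; *Nr4a2*, without a 0 h row, could not be fitted with all 12 libraries, nor the interactions with only the libraries compared. The *Nr4a1* value at 0 h changed sign around 0 without being called, to 0.0040 with no filter, 0.0049 with all 12 libraries, and, without 1 library of 0 h, to 0.092 (WT replicate 2), 0.033 (KO replicate 1) and 0.069 (KO replicate 3), within -0.10 to 0.092 over libraries left out. Its cause was not tested. Leaving out a library, the 4 h log2 fold changes ran from 0.77 to 1.00 for *Nr4a1*, 1.62 to 1.93 for *Nr4a2* and 1.29 to 1.67 for *Nr4a3*, the KO culture change of *Nr4a3* from 1.67 without KO 0 h replicate 2 to 2.62 without replicate 3, and the adjusted p of *Nr4a1* in KO culture reached 0.045 without KO 0 h replicate 2. The *Nr4a3* interaction ran from 0.87 without KO 0 h replicate 3 to 1.82 without replicate 2 (edgeR adjusted p = 0.0579). Genes called by genotype ran from 26 to 161 at 0 h against 112 (26 without KO replicate 1, 50 without WT replicate 2, 55 without KO replicate 3, 59 without WT replicate 3) and from 776 to 1361 at 4 h against 1212 (776 without KO replicate 1).

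The labels do not say whether libraries with the same number share a mouse, so they were not treated as pairs. Deviations from group means correlated at -0.0402 to 0.152 between 0 h and 4 h libraries of a number and genotype. Between WT and KO libraries of a number, which cannot share a mouse, they correlated at -0.101 to 0.0639. Libraries of unlike number were not compared, so these values do not settle the pairing. With the replicate block 1062 genes were called at 4 h and the *Nr4a1* value was 0.87. With 0 h and 4 h libraries of a number paired, 842 genes were called in the interaction against 739. The *Nr4a1* interaction was then 0.87 ± 0.14 against 0.88 ± 0.18. No NR4A call changed. Depth limits *Nr4a3* at 0 h (1 to 13 reads) and *Nr4a2* throughout. The 0 h genotype test of *Nr4a2* and *Nr4a3* and the culture tests of *Nr4a2* could not be run as planned, since these genes had no row or were filtered out.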

Other observations

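Over the 6 libraries of 4 h alone, a choice made after seeing the data since *Nr4a2* has no 0 h row, the genes most like *Nr4a2* by Pearson's r were *Plekhm1* (0.998), *Zfp948* (0.997), *Dnase1l3* (0.995), *2700050L05Rik* (0.994) and *Wdr91* (0.994). *Zfp948*, a zinc finger gene, was at 30.4 ± 0.0887 CPM in WT 4 h and 18.8 ± 1.46 CPM in KO 4 h, after 6.15 ± 0.951 and 9.49 ± 1.18 CPM at 0 h. *Dnase1l3*, which encodes a secreted DNase, was at 38.1 ± 0.681 and 25.6 ± 2.71 CPM at 4 h, after 27.2 ± 4.90 and 26.5 ± 0.594 CPM. With 6 libraries in 2 separated groups such values of r follow the group difference, and no relation within a group was tested.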
